A study of Mus musculus with 4 samples.

Results

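The 10 genes described here run the making, the breakdown and the feedback control of the polyamines in primary mouse myoblasts. They were Odc1, Amd1, Srm and Sms (synthesis), Oaz1, Oaz2 and Azin1 (the antizyme system) and Sat1, Smox and Paox (catabolism). They were taken by gene name from the 55573 genes of the deposited table, and all 10 had reads. Ribosome-protected signal was measured in 4 libraries, 2 labelled wild type (WT) and 2 labelled eIF5A-KO for the knockout, to ask how loss of the translation factor eIF5A changes what ribosomes occupy.

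Primary myoblasts are proliferating progeny of muscle satellite cells. Here they were isolated from the hind limbs of 3-week-old mice and collected on day 2 of proliferation with fibroblast growth factor. In the eIF5A-KO mice (Pax7 CreERT2/+;eIF5A f/f), tamoxifen activates a CreERT2 recombinase expressed from Pax7, which deletes floxed eIF5A in satellite cells. Cells of other types that grow in the culture and never expressed Pax7 would keep the gene. For these libraries the controls are called WT littermates. Elsewhere the study describes its WT controls both as Pax7 CreERT2/+ and as Pax7+/+;eIF5A f/f, and the labels do not say which applied to these libraries. Tamoxifen was given to induce the deletion, and the sources used here do not say whether the WT mice of these libraries received it. How many animals stood behind each library was not given in the sources used here, so p-values measure only the spread between these libraries. The titles name polysome sequencing, whereas the protocol describes digestion with RNase I and recovery of the protected fragments, which is ribosome profiling. The study's protocols for both methods treat the cells with cycloheximide before lysis, for different times.

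Polyamines (putrescine, spermidine and spermine) are small cations that bind RNA and are needed for growth. Spermidine is also the donor from which hypusine, the modified lysine of eIF5A, is made. The pathway is held in check at the level of translation: rising polyamines favour a +1 frameshift on antizyme mRNA, antizyme then binds ornithine decarboxylase and takes it to the proteasome, and antizyme inhibitor competes for antizyme.

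Elements that ribosomes read in this control include short stretches of the antizyme and Amd1 transcripts, which are shown before the values. They were read from GENCODE M21 transcripts (build GRCm38), 5′ to 3′. In the antizyme sites the capitals mark the last sense codon before the shift followed by the stop codon of the first reading frame. The sites lie in coding exons, at chr10:80828280-80828309 (plus strand) for Oaz1 and at chr9:65686257-65686286 (plus strand) for Oaz2. In Amd1 the capitals mark the start and stop codons of an upstream open reading frame in the 5′ leader, at chr10:40302155-40302175 (minus strand).
Oaz1 frameshift site: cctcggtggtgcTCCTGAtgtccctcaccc
Oaz2 frameshift site: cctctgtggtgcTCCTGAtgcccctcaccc
Amd1 upstream open reading frame: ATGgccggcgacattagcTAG
The Oaz1 and Oaz2 sites were identical at 28 of 30 bases. The Amd1 upstream frame held 6 codons before its stop and began 317 bases before the main start codon, with 296 bases between its stop and that start. The deposited values are sums over whole genes, so reads before and after the frameshift, or on the upstream frame, could not be separated.

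The values are RPKM, that is, reads scaled by gene length and by library size. Whole reads could be recovered from them, and the library totals lay between 642429 and 704006 reads. The library sizes behind the deposited RPKM were not these totals but 602863 and 471136 for WT and 906990 and 807705 for eIF5A-KO. WT libraries held 269143 and 217651 reads on protein-coding genes, while those labelled eIF5A-KO held 460099 and 385091, so the members were measured at lower depth in WT. The targeted gene itself did not separate the labels. Eif5a stood at 34.9 and 65.2 RPKM in WT and at 60.3 and 59.4 RPKM in eIF5A-KO, a log2 fold change of 0.32 (SE 0.48, adjusted p = 0.839, limma). The value sums the whole gene, and the exons lost in the knockout were not separated, so directions below refer to the libraries labelled eIF5A-KO. The myoblast markers moved with the label. The summed RPKM of 10 of them (Pax7, Myf5, Myod1, Myog, Des, Cdh15, Itga7, Ncam1, Msc and Chrna1) was 346 and 203 in WT against 101 and 123 in eIF5A-KO, with all 10 read, Myf5 and Msc at 0 in at least 1 library, and 7 lower without overlap between the groups, where 40.4% of the 11363 genes tested did not overlap in either direction. Sums over 8 fibroblast markers were 496 and 301 in WT and 805 and 366 in eIF5A-KO, with 1 lower and 2 higher without overlap. Sums over 6 endothelial markers were 106 and 101 in WT and 139 and 112 in eIF5A-KO, with 4 higher without overlap. Sums over 6 immune markers lay between 17.1 and 25.6, with Cd3e and Itgam at 0 and 1 lower and 2 higher without overlap. The part of this difference in cell markers in the results below was not tested, and in bulk cells a smaller number of cells of a type and less signal per cell cannot be told apart.

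None of the 10 polyamine genes separated the WT from the eIF5A-KO libraries. In each of them the ranges of the groups overlapped, whereas 40.4% of all tested genes had no overlap. Of the members, 8 reached the mean of 1 RPKM needed for the test, and Sms and Paox did not. By limma, 0 of these 8 were called at an adjusted p under 0.05, against 0.106% of all tested genes, and 0 at an unadjusted p under 0.05, against 7.32%. Limma-voom on the recovered reads also called 0, and its minimum of 20 reads over the 4 libraries left Amd1 (17 reads) out. The log2 fold changes (eIF5A-KO minus WT, on log2(RPKM + 1)) ran from -0.37 for Smox to 0.40 for Srm, with 3 below 0, 5 above and a median of 0.19, beside a median of 0.00026 over all tested genes. Scaling the libraries to the same sum of reads instead moved the median of all genes to 0.47 and the members to between -0.01 (Amd1) and 0.99 (Srm), with Odc1 at 0.82 and Sat1 at 0.91, and 0 members were called. The intervals given with each gene below show how wide a change these 4 libraries leave possible.

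**Figure D1:**
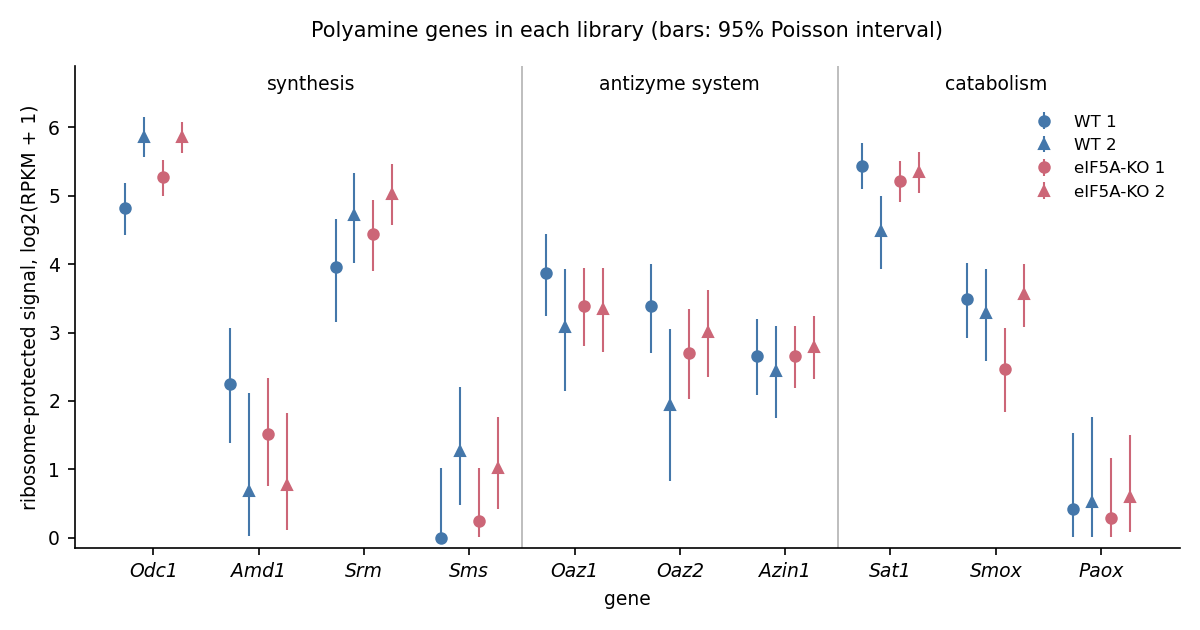
Ribosome-protected signal of the 10 polyamine genes on the log2(RPKM + 1) scale (y axis) by gene (x axis), with 1 point for each WT (blue) and eIF5A-KO (red) library and bars for the exact 95% Poisson interval of its reads. The blue and red points overlap for every gene, and the pair of WT points of Odc1 and of Sat1 lie apart in opposite directions.

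Among the synthesis genes, Odc1 carried the most reads. Odc1 codes for ornithine decarboxylase, which makes putrescine from ornithine and is the usual rate-limiting step of the pathway (12:17544794-17551505, plus strand, 12 exons). It stood at 27.3 and 57.3 RPKM in WT (56 and 92 reads) and at 37.6 and 57.1 RPKM in eIF5A-KO (116 and 157 reads). Both eIF5A-KO libraries lay inside the range set by the WT pair. The means were 42.3 ± 21.3 RPKM in WT and 47.3 ± 13.8 RPKM in eIF5A-KO (SD, n = 2 each), a log2 fold change of 0.22 (SE 0.53, 95% interval -1.09 to 1.53, adjusted p = 0.906, limma). Within WT, library 2 was 2.10 times library 1, and within eIF5A-KO library 2 was 1.52 times library 1. In both cases the exact 95% Poisson intervals of the libraries did not overlap, so the spread within a group went beyond counting error. The log2 difference turned to -0.30 when WT library 1 was left out and rose to 0.74 in the absence of WT library 2. Odc1 ranked above 96.9% to 98.5% of the 21900 protein-coding genes of the table in the 4 libraries.

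Srm, the spermidine synthase that adds the first aminopropyl group to putrescine, was read at an intermediate level (4:148591503-148594993, plus strand, 7 exons). Its values were 14.5 and 25.2 RPKM in WT (14 and 19 reads) and 20.7 and 31.7 RPKM in eIF5A-KO (30 and 41 reads). The lower eIF5A-KO library fell between the WT libraries and the higher lay above both. The log2 fold change of 0.40 was the highest of the 8 (SE 0.47, 95% interval -0.76 to 1.56, adjusted p = 0.787, limma), from 19.9 ± 7.56 RPKM in WT to 26.2 ± 7.82 RPKM in eIF5A-KO (SD, n = 2 each). Leaving out 1 library at a time gave 0.02 to 0.78.

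Amd1 and Sms supply and use the aminopropyl groups and were close to the limit of detection. Amd1 codes for S-adenosylmethionine decarboxylase, which makes the aminopropyl donor (10:40287458-40302186, minus strand, 8 exons). Amd1 gave 3.75 and 0.599 RPKM in WT (8 reads and 1 read) and 1.87 and 0.699 RPKM in eIF5A-KO (6 and 2 reads). The eIF5A-KO values again lay between the WT values, and the log2 fold change was -0.32 (SE 0.73, 95% interval -2.12 to 1.48, adjusted p = 0.899, limma). Sms codes for spermine synthase, which turns spermidine into spermine (X:157443855-157492287, minus strand, 11 exons). Sms was listed at 0 and 1.41 RPKM in WT (0 and 4 reads) and at 0.183 and 1.03 RPKM in eIF5A-KO (1 and 5 reads). In WT library 1 a count of 0 allows up to 0.828 RPKM (3 reads), or 1.02 RPKM as the upper bound of the two-sided 95% Poisson interval that is plotted. The Poisson intervals of all 4 libraries overlapped, and Sms, at 0 to 5 reads a library, fell below the filter of the main test. Intervals and this floor cover counting error only, since amplified reads are not independent molecules.

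Next came the antizyme system. Oaz1 codes for antizyme 1, the main inhibitor of ornithine decarboxylase (10:80826656-80829290, plus strand, 6 exons). It stood at 13.6 and 7.47 RPKM in WT (21 and 9 reads) and at 9.48 and 9.20 RPKM in eIF5A-KO (22 and 19 reads). The eIF5A-KO libraries lay close together and inside the WT range. The log2 fold change was -0.11 (SE 0.43, 95% interval -1.16 to 0.94, adjusted p = 0.947, limma), with means of 10.5 ± 4.35 RPKM in WT and 9.34 ± 0.203 RPKM in eIF5A-KO (SD, n = 2 each).

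Oaz2 codes for antizyme 2, a paralog controlled by the same kind of frameshift (9:65668001-65690300, plus strand, 6 exons). Oaz2 gave 9.43 and 2.84 RPKM in WT (17 and 4 reads) and 5.53 and 7.04 RPKM in eIF5A-KO (15 and 17 reads). Like Oaz1, it was higher in WT library 1 than in WT library 2, by 3.32 times against 1.82 times for Oaz1, and the Poisson intervals of the WT libraries overlapped for both genes. Its log2 fold change was 0.20 (SE 0.55, 95% interval -1.17 to 1.56, adjusted p = 0.919, limma).

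Azin1 codes for antizyme inhibitor 1, a relative of ornithine decarboxylase that has no decarboxylase activity and sequesters antizyme (15:38487427-38519266, minus strand, 13 exons). Azin1 stood at 5.30 and 4.41 RPKM in WT (20 and 13 reads) and at 5.29 and 5.94 RPKM in eIF5A-KO (30 in each). The lower eIF5A-KO library was just below the higher WT library, so the groups overlapped. Means of 4.86 ± 0.631 RPKM in WT and 5.61 ± 0.460 RPKM in eIF5A-KO (SD, n = 2 each) gave a log2 fold change of 0.18 (SE 0.36, 95% interval -0.70 to 1.06, adjusted p = 0.883, limma). Its leave-one-out values ran from 0.07 to 0.29, which was the narrowest range among the 8 tested members.

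Sat1 was the most strongly read gene of catabolism. It codes for spermidine/spermine N1-acetyltransferase, whose products leave the cell or are oxidised (X:155213132-155216449, minus strand, 6 exons). Sat1 stood at 42.5 and 21.4 RPKM in WT (71 and 28 reads) and at 36.2 and 39.7 RPKM in eIF5A-KO (91 and 89 reads). The eIF5A-KO values lay between the WT values, and here WT library 1 was the higher one, at 1.98 times WT library 2 with Poisson intervals that did not overlap. The log2 fold change was 0.32 (SE 0.48, 95% interval -0.87 to 1.51, adjusted p = 0.841, limma), from 31.9 ± 14.9 RPKM in WT to 37.9 ± 2.51 RPKM in eIF5A-KO (SD, n = 2 each). Leaving out WT library 2 turned it to -0.16, and leaving out WT library 1 gave 0.79.

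Smox, the oxidase that turns spermine back into spermidine (2:131491496-131525922, plus strand, 8 exons), had the lowest fold change. Smox gave 10.2 and 8.72 RPKM in WT (24 and 16 reads) and 4.53 and 10.8 RPKM in eIF5A-KO (16 and 34 reads). The eIF5A-KO libraries lay on either side of the WT pair, with library 2 at 2.39 times library 1 and Poisson intervals that did not overlap. The log2 fold change of -0.37 (SE 0.48, 95% interval -1.56 to 0.82, adjusted p = 0.811, limma) turned to 0.18 without eIF5A-KO library 1. Paox codes for the oxidase of acetylated polyamines (7:140115799-140137224, plus strand, 7 exons). Paox held 1 read in each WT library (0.338 and 0.433 RPKM) and 1 and 2 reads in eIF5A-KO (0.225 and 0.505 RPKM), which is at the limit of detection in every library.

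**Figure D2:**
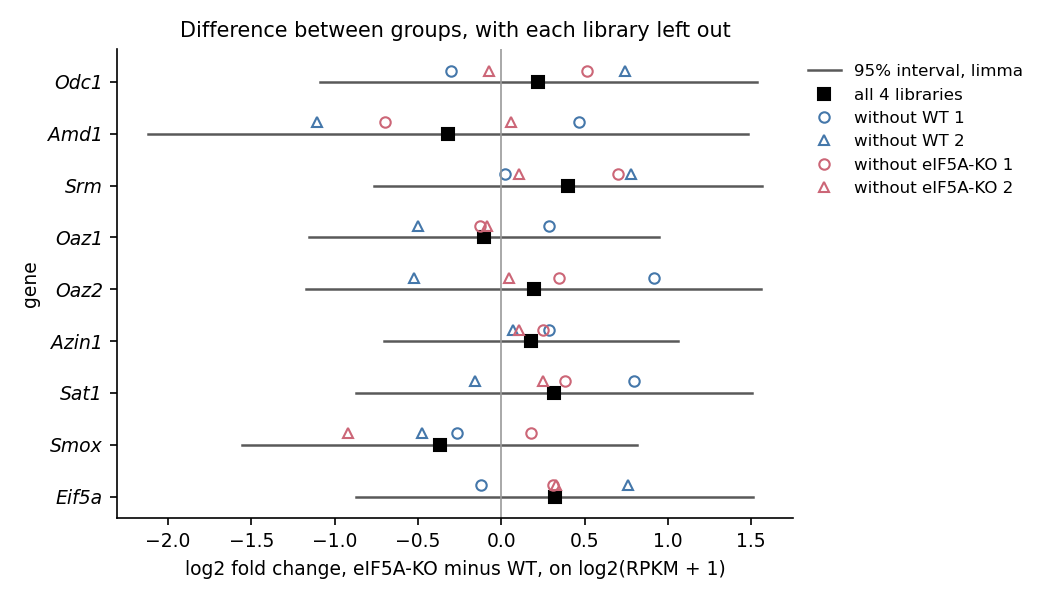
Log2 fold change (eIF5A-KO minus WT, on log2(RPKM + 1), x axis) of the 8 tested polyamine genes and Eif5a (y axis), with the value from all 4 libraries as a square, its 95% limma interval as a line and open symbols for the fit without each library. All 9 intervals cross 0, and for Odc1, Amd1, Oaz1, Oaz2, Sat1, Smox and Eif5a at least 1 open symbol lies on the other side of 0 from the square.

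For several members the WT libraries differed from each other by more than the group means did. In Odc1, Amd1, Oaz1, Oaz2 and Sat1, which are 5 of the 8 tested members, both eIF5A-KO values fell within the WT range, as they did for 21.3% of all tested genes. On the log2(RPKM + 1) scale WT library 2 differed from WT library 1 by 1.04 in Odc1, 0.76 in Srm, -0.79 in Oaz1, -1.44 in Oaz2, -0.95 in Sat1 and -1.57 in Amd1, but by -0.22 in Azin1 and -0.21 in Smox, where the median absolute difference was 0.51 over 5753 protein-coding genes with at least 50 reads. Amd1, with 8 reads and 1 read in WT, is below that minimum. The Poisson intervals of the WT libraries were separate for Odc1 and Sat1, and they overlapped for Amd1, Srm, Oaz1 and Oaz2. Such overlap does not show that a difference lies within counting error, and the counts were not compared by a direct test. Odc1 and Srm were higher in WT library 2, whereas Oaz1, Oaz2, Sat1 and Amd1 were higher in WT library 1. Between the eIF5A-KO libraries the differences were 0.59 in Odc1 and 0.59 in Srm, and -0.04, 0.30 and 0.13 in Oaz1, Oaz2 and Sat1, against a median absolute difference of 0.35. Smox at 1.09 and Amd1 at -0.76 differed more widely between the eIF5A-KO libraries, and Azin1 was at 0.14. Here the Poisson intervals were separate for Odc1 and Smox, and they overlapped for the other members.

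Ratios within a library do not depend on how the libraries were scaled, so they compare regulator with target directly. The ratio of Oaz1 to Odc1 (reads per gene length) was 0.499 and 0.130 in WT and 0.252 and 0.161 in eIF5A-KO, so the eIF5A-KO values lay between the WT values. Antizyme was below its target in each library on this scale and per coding length, but not on the scale of coding windows without a copy described further on, where WT library 1 had 590.4 for Oaz1 and 403.9 for Odc1. The log2 difference between groups was -0.34 (exact two-sided permutation p = 1, n = 2 each). Azin1 over Odc1 was 0.194 and 0.0769 in WT and 0.141 and 0.104 in eIF5A-KO, and its log2 difference was -0.015 (exact p = 1).

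Within the antizyme system, Azin1 over Oaz1 was 0.389 and 0.591 in WT and 0.558 and 0.646 in eIF5A-KO. Antizyme inhibitor thus stayed below antizyme in all 4 libraries by this measure, with a log2 difference between groups of 0.32 (exact permutation p = 0.667). Oaz2 over Oaz1 was 0.693 and 0.380 in WT and 0.583 and 0.765 in eIF5A-KO, with a log2 difference of 0.38 (exact permutation p = 0.667).

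The balance of synthesis to catabolism differed widely between the WT libraries. Odc1 over Sat1 was 0.643 in WT library 1 and 2.68 in WT library 2, against 1.04 and 1.44 in eIF5A-KO, with a log2 difference between groups of -0.10 (exact permutation p = 1). Amd1 over Odc1, the ratio of the 2 decarboxylases, was 0.137 and 0.0104 in WT and 0.0497 and 0.0122 in eIF5A-KO, and its log2 difference of -0.62 (exact permutation p = 1) rests on 1 to 8 reads of Amd1 a library. Srm over Sms was 17.9 in WT library 2 and 113 and 30.8 in eIF5A-KO, and neither it nor Smox over Sms has a value in WT library 1, where Sms had 0 reads. With 1 read added to each gene, the log2 differences between groups were 0.43 for Srm over Sms (exact permutation p = 0.667) and -0.39 for Smox over Sms (exact permutation p = 1). Adjusted p was 1 for each of the 6 pairs tested and, with 1 read added, for each of 8, and 2 against 2 libraries cannot give an exact p under 0.333.

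**Figure D3:**
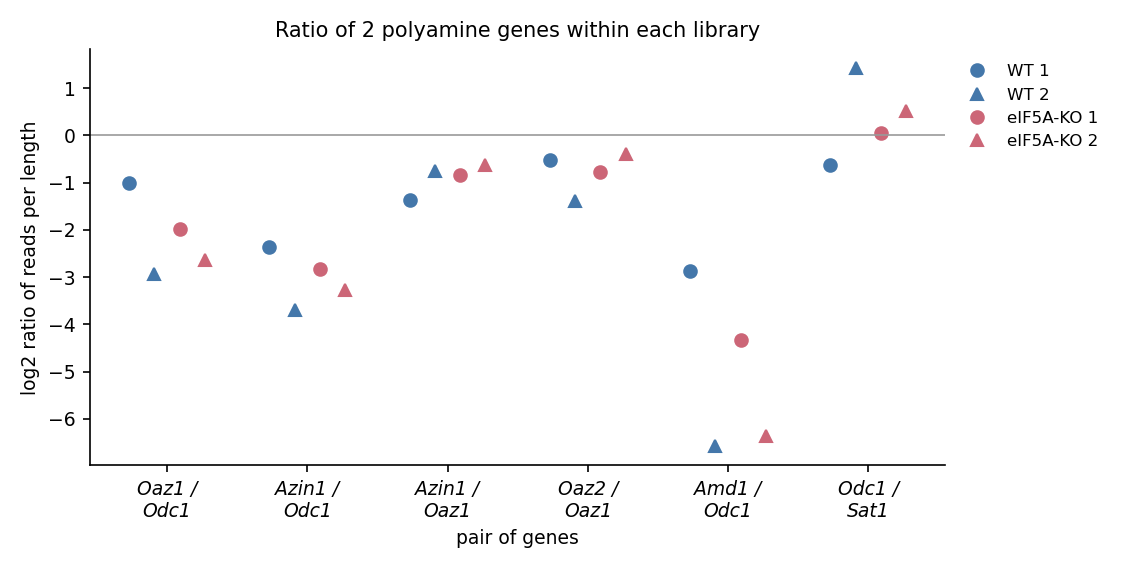
Log2 ratio of reads per gene length (y axis) for 6 pairs of polyamine genes (x axis), with 1 point for each WT (blue) and eIF5A-KO (red) library. In 4 of the pairs (Oaz1 over Odc1, Azin1 over Odc1, Amd1 over Odc1 and Odc1 over Sat1) both red points lie between the blue ones.

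The 10 genes together took a nearly equal share of protein-coding reads in the WT libraries, at 0.0862% and 0.0859%, and 0.0713% and 0.103% in eIF5A-KO, which is a difference between the group means of 0.0010 percentage points (exact permutation p = 1). The equal WT sums hid unequal parts. Synthesis genes took 0.0290% and 0.0533% of the reads of the WT libraries, and catabolic genes 0.0357% and 0.0207%. In eIF5A-KO the synthesis genes took 0.0333% and 0.0532% and the catabolic genes 0.0235% and 0.0325%, and the antizyme system ran from 0.0119% to 0.0215% over the 4 libraries. Taken over reads on all genes, the sum was 0.0358% and 0.0291% in WT and 0.0466% and 0.0609% in eIF5A-KO, higher by 0.0213 percentage points without overlap (exact permutation p = 0.333, the smallest possible), and the count of protein-coding reads given above moved in the same direction. Its part in this difference was not tested.

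Levels were then compared between the genes. By deposited RPKM, averaged over the 4 libraries, the order was Odc1 (44.8), Sat1 (34.9), Srm (23.0), Oaz1 (9.94), Smox (8.57), Oaz2 (6.21), Azin1 (5.23), Amd1 (1.73), Sms (0.657) and Paox (0.375). The ranges over libraries were separate at 2 places in that order, between Srm and Oaz1 and between Azin1 and Amd1. All other neighbours overlapped, so their order is not resolved beyond the spread. RPKM divides by the whole exonic length of a gene, which for Sat1 is 2774 bases with 534 bases of coding sequence. Divided by coding length instead, on the assumption that reads fall on coding sequence, Sat1 came first with 181.5 on the RPKM scale and Odc1 next with 110.3, with overlapping ranges. Oaz1 (37.3) and Oaz2 (32.7) then stood near Srm (40.7), again with overlap, and Azin1 was at 24.4, above Smox at 19.0.

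The coding sequences of most members occur again elsewhere in the genome. Exact copies were counted in windows of 30 bases, about the length of a protected fragment, over the longest coding sequence of each gene. For Odc1, 83.0% of coding windows were also found in the transcripts of other genes, spread over 20 pseudogenes. For Amd1 it was 100%, over 8 genes that include the protein-coding Amd2, and for Sms 100%, with Sms-ps alone holding all 1069 windows. Oaz1 shared 91.0% with Oaz1-ps, Oaz2 63.6% with 2 genes, and Paox 87.5% with Gm19680. The shares for Sat1 and Srm were 35.4% and 18.1%. Azin1 and Smox had no copy.

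Few reads were assigned to these copies. The 20 Odc1 copies held 6 reads in all against 421 on Odc1, the copies of Srm, Sms and Sat1 held 1 read each, and those of Amd1, Oaz1, Oaz2 and Paox 0. Whether reads that match several places were dropped or assigned is not given in the sources used here, so the levels of Odc1, Amd1, Sms, Oaz1, Oaz2 and Paox are uncertain. The reads were also divided by the coding windows without a copy. This gives the level only if such multiply matching reads had been dropped and all others fell on coding sequence. On that scale Odc1 (663.5) was followed by Oaz1 (431.0), Sat1 (297.3), Oaz2 (94.7), Srm (51.3), Azin1 (24.9), Smox (19.3) and Paox (9.89). Amd1 and Sms have no such window. Oaz1 thus ranked 4 by RPKM and 2 on this scale. Ranges over libraries were separate here only between Sat1 and Oaz2 and between Srm and Azin1, so the order of the other neighbours is not resolved. The ratio of a gene's reads between libraries is not moved by this choice of length. The fold changes on log2(RPKM + 1) and the filter at 1 RPKM do depend on it, and they were computed with the deposited length. Of the exons, those of Azin1 overlap Gm49077 (antisense, 0 reads), those of Oaz1 overlap Mir1982 (0 reads) and those of Paox share 142 bases with Echs1 on the other strand (68 reads), and the strand setting of the counts was not stated.

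**Figure D4:**
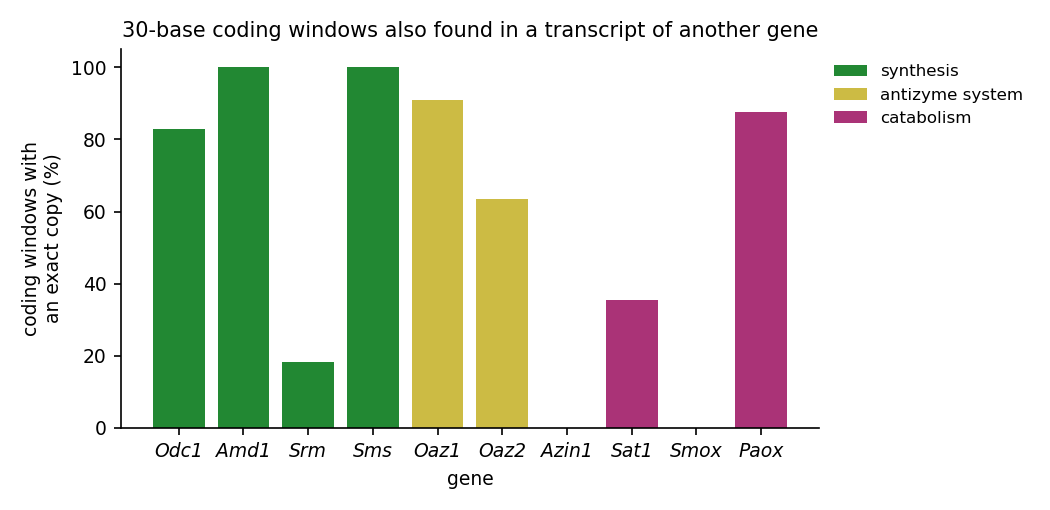
Share of 30-base windows of the coding sequence with an exact copy in a transcript of another gene (y axis, percent) for the 10 polyamine genes (x axis), coloured by role. The bars reach 100% for Amd1 and Sms, over 80% for Odc1, Oaz1 and Paox, and 0 for Azin1 and Smox.

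Base composition moved with the difference between groups across the table and differs among the members. Coding GC ran from 40.1% in Azin1 to 59.9% in Oaz1. Tested genes within 1 GC percentage point of Azin1 had a median log2 fold change of 0.43, those near Sat1 0.35 and those near Odc1 0.22, whereas those near Oaz1 had -0.28 and those near Smox -0.23. With the GC trend removed, the log2 fold change was -0.003 for Odc1, -0.008 for Sat1, -0.21 for Azin1, 0.18 for Oaz1 and 0.64 for Srm. It was -0.65 for Amd1, -0.13 for Smox and 0.09 for Oaz2, and none of the members was called. Runs of proline codons, at which eIF5A is known to relieve stalled ribosomes, were short, with a longest run of 1 or 2 codons in each of the 10 coding sequences. The 5′ leaders were not searched for such runs, and only the Amd1 leader was searched for an upstream frame.

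Other genes around the pathway were described in the same way. All 43 genes of a list of ornithine supply, methionine salvage, antizyme relatives, oxidation, transport and hypusination were in the table, 8 had no reads and 25 were tested. By limma, 0 were called at an adjusted p under 0.05, and at an unadjusted p under 0.05 there were 2 higher and 0 lower. Limma-voom, limited to genes with at least 20 reads and so without Maob and Dohh among others, called 0 as well. Values of the groups did not overlap for 2 lower and 8 higher of the 25 tested genes. All tested genes gave 40.4% without overlap and 7.32% at an unadjusted p under 0.05. With all 4 libraries, the counts over both directions together were thus near the background. By direction, 325 of the 11363 tested genes were higher and 507 lower at an unadjusted p under 0.05. The share without overlap was not split by direction. The unadjusted counts moved with the setting. Leaving out WT library 1 or WT library 2 gave 4 of the 25 higher each time, beside 3.93% and 7.12% of all tested genes, and 2 lower in the second case, beside 6.96%. Leaving out eIF5A-KO library 1 or 2 gave 0 higher, beside 1.8% and 2.36%. Scaling the libraries to the same sum of reads gave 7 higher, beside 14.8%. With all 4 libraries as deposited, the median log2 fold change of the list was 0.32, with 19 above 0 and 6 below, beside a median of 0.00026 over all tested genes.

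Slc7a2, a transporter that brings arginine and other cationic amino acids into the cell, was one of the 2. Slc7a2 stood at 3.63 and 1.86 RPKM in WT (20 and 8 reads) and at 12.3 and 7.73 RPKM in eIF5A-KO (102 and 57 reads). Both eIF5A-KO libraries were above both WT libraries, with a log2 fold change of 1.57 (SE 0.44, unadjusted p = 0.0126, adjusted p = 0.635, limma) and 1.22 to 1.91 when each library was left out. Adi1, the acireductone dioxygenase of methionine salvage, was the other. Adi1 stood at 0.880 and 4.50 RPKM in WT (1 read and 4 reads) and at 9.94 and 8.53 RPKM in eIF5A-KO (17 and 13 reads), a log2 fold change of 1.67 (SE 0.58, unadjusted p = 0.0282, adjusted p = 0.672, limma). Without WT library 1 the value for Adi1 was 0.89, and without WT library 2 it was 2.44.

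Of the ornithine supply genes, 4 were tested, and the lowest log2 fold change was -0.15 for Slc25a15, the mitochondrial ornithine carrier, at 1.18 and 2.64 RPKM in WT and 1.18 and 1.98 RPKM in eIF5A-KO. In methionine salvage, with 8 tested, the lowest was Enoph1, the enolase-phosphatase of that route, at 11.2 and 9.31 RPKM in WT and 5.71 and 6.91 RPKM in eIF5A-KO (log2 fold change -0.62). Among 8 tested transport genes the lowest was Atp13a2, a lysosomal polyamine exporter, at 3.04 and 4.60 RPKM in WT and 0.919 and 2.27 RPKM in eIF5A-KO (log2 fold change -0.93, and -0.54 without eIF5A-KO library 1). None of these 3 genes passed an unadjusted p of 0.05.

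The monoamine oxidases, placed with the acetylation and oxidation genes, gave log2 fold changes of -0.31 for Maob, on 0 to 7 reads a library, and 0.14 for Maoa. The hypusination enzymes tie the pathway to eIF5A. Dhps, deoxyhypusine synthase, was at 3.57 and 5.48 RPKM in WT and 3.32 and 5.86 RPKM in eIF5A-KO, a log2 fold change of 0.0009. Dohh, deoxyhypusine hydroxylase, was at 0.810 and 3.11 RPKM in WT and 2.69 and 3.63 RPKM in eIF5A-KO, a log2 fold change of 0.60 on 15 reads in all, which became 0.0084 when WT library 1 was left out and 1.19 when WT library 2 was. The groups overlapped for both. No further antizyme gene could be tested.

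**Figure D5:**
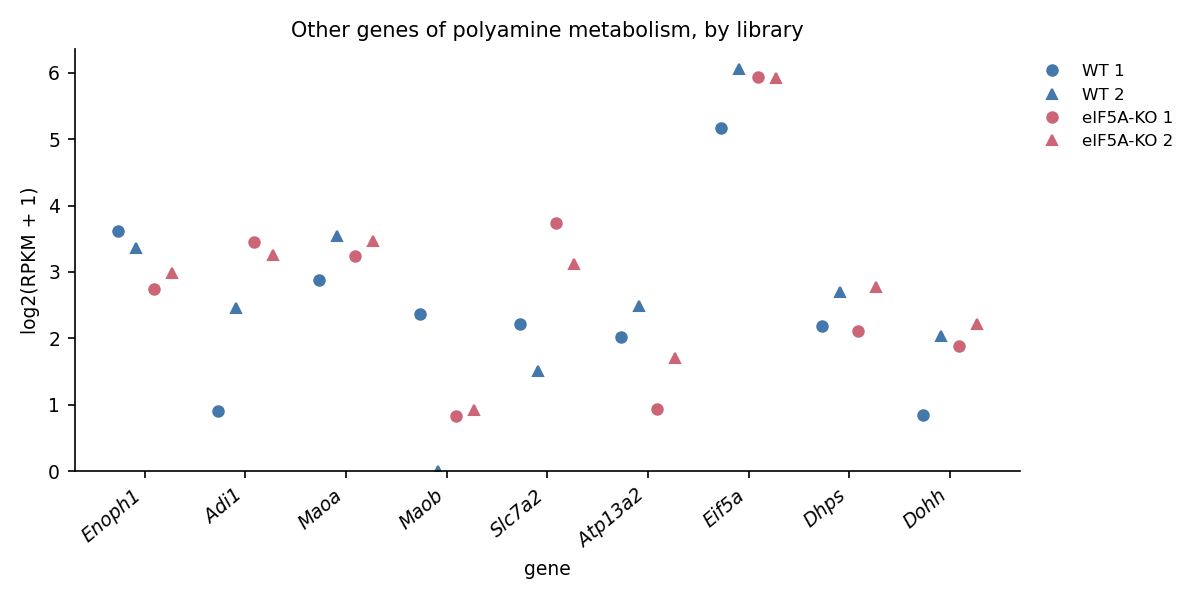
Log2(RPKM + 1) (y axis) in each WT (blue) and eIF5A-KO (red) library for Eif5a and the named genes of methionine salvage, oxidation, transport and hypusination (x axis). The red points lie above the blue ones for Slc7a2 and Adi1 and below them for Enoph1 and Atp13a2, while the ranges of the colours overlap for the other genes.

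Genes whose profile over the 4 libraries came closest to that of Odc1 were sought among 3354 protein-coding genes with at least 100 reads, by the distance between centred log2(RPKM + 1) values. They were Vapa (distance 0.051), Paip2 (0.095) and Apln (0.10). Vapa stood at 33.3 and 68.1 RPKM in WT and at 45.8 and 71.3 RPKM in eIF5A-KO, which repeats the order of the Odc1 values in WT and the low eIF5A-KO library 1. With 4 libraries as points, this likeness is a description of these libraries alone.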

How the data were processed

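The deposited table held RPKM values that the authors computed per gene and library. The study's methods name removal of rRNA and tRNA reads, Tophat2, an Ensembl annotation release and HTSeq, and the submitters' processing notes name mm10; tool versions, strand and the treatment of multiply mapped reads are not given in the sources used here. RPKM times gene length gave whole reads for 100% of values within a tolerance of 0.01, and the depth was 642429 to 704006 reads a library. Groups came from the sample titles. The members, lists and tests were chosen with earlier results of these data known. The test was limma 3.58.1 (R 4.3.3, trend=TRUE) on log2(RPKM + 1), with no replicate block, for genes whose mean reached 1 RPKM, with Benjamini-Hochberg adjustment over all 11363 genes. This scale understates changes of low genes. GENCODE M21 (GRCm38) was used here in place of that annotation, and 99.8% of identifiers matched it. Named genes were all members, Eif5a, list genes at an unadjusted p under 0.05, the lowest and highest of each list, and the 3 profiles nearest Odc1; 1 named gene is not reported here. Single values had exact two-sided permutation tests (scipy 1.17.1). Alternatives changed the pseudocount, filter, scaling, model, base-composition correction and libraries. The level scales by coding length and by windows without a copy were added after seeing the data.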

Additional observations from a re-analysis of the deposited data

How the results depend on the processing

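No member was called, in either direction, under any of the alternatives run, with adjusted p from 0.316 to 1.00 (limma). None of the other genes of the pathway was called either, though adjusted p reached 0.190 for Slc7a2 (limma-voom). Over all genes, the 11 lower and 1 higher called became 0 and 0 with a pseudocount of 0.1, no filter, scaling to the same sum of reads, a filter at a mean of 5 RPKM, trend=FALSE, the GC trend removed, the replicate number as a block or any 1 library left out (range 0 to 0), and 39 and 0 with limma-voom. At an unadjusted p under 0.05, the 507 lower and 325 higher became 170 and 1684 with scaling to the same sum, which moved the median of all genes to 0.47, and 509 and 318 with the replicate block. The deviations of same-numbered libraries had a correlation of 0.057, so the numbers were not taken as pairs, and the block changed no call of a member. Signs turned as follows. Scaling to the same sum gave log2 fold changes of 0.44 for Oaz1, 0.17 for Smox and 0.25 for Slc25a15, all below that median. Removing the GC trend gave -0.0034 for Odc1, 0.18 for Oaz1, -0.21 for Azin1, -0.0082 for Sat1 and -0.15 for Maoa. A pseudocount of 0.1 gave 0.52 for Maob and -0.0029 for Dhps, which was also -0.090 with scaling over protein-coding genes and -0.012 with limma-voom. The cause was not tested. With 1 library left out, where the lone library is assumed to vary like the other group, log2 fold changes ran from -0.30 to 0.74 for Odc1, -1.10 to 0.46 for Amd1, -0.50 to 0.29 for Oaz1, -0.53 to 0.92 for Oaz2, -0.16 to 0.79 for Sat1, -0.92 to 0.18 for Smox, -0.12 to 0.76 for Eif5a, -0.52 to 0.22 for Slc25a15, -1.49 to 0.88 for Maob, -0.19 to 0.48 for Maoa and -0.33 to 0.33 for Dhps. Log2 ratios between groups then ran from -1.31 to 0.63 for Oaz1 over Odc1, -0.68 to 0.65 for Azin1 over Odc1, -0.052 to 0.81 for Oaz2 over Oaz1, -2.48 to 1.24 for Amd1 over Odc1 and -1.13 to 0.93 for Odc1 over Sat1. The share of protein-coding reads ran from -0.0148 to 0.0168 percentage points. Reads were few for Sms, Paox and Amd1, and the parts of depth and of the copies of their coding sequences in this were not tested. With a filter at a mean of 5 RPKM Amd1 was not tested.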
